A study of Mus musculus with 10 samples.

Results

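Genes known as targets of the corticosteroid receptors, 30 in all and listed by symbol, were followed here through the hearts of mice given aldosterone. Every array probe whose accession belonged to 1 of the 30 genes was taken, which gave 39 probes, and 8 genes had more than 1 probe. All 30 genes and all 39 probes passed the filter on dim probes, out of 22016 genes or transcripts tested, and where a gene had several probes the one with the brightest mean signal stood for it. All mice were male, and RNA came from their ventricles. The groups were 5 untreated hearts, called control, and 5 hearts of mice given aldosterone, both under a label of 7 days of treatment. Sample titles put the tag Ctrl on the mice of both groups, without saying what it stands for, and control here means the untreated hearts only. Heart RNA carried the dye Cy5 and was hybridised against Cy3-labelled RNA pooled from liver, brain, heart, kidney and spleen, so each value is a log2 ratio of heart over that reference. The labels number each mouse separately, so p-values measure the spread between mice. Strain, age, aldosterone dose, route and salt intake are not given in the sources used here. Scanner files of 9 arrays were analysed (all but aldosterone 4), and the authors' deposited value table held all 10 hearts.

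Aldosterone is the adrenal steroid that binds the mineralocorticoid receptor. Corticosterone, the main glucocorticoid of the mouse, binds the same receptor and also the glucocorticoid receptor, and in cardiomyocytes most mineralocorticoid receptors are held to be occupied by it, because the enzyme that inactivates it is scarce there. Both receptors move to the nucleus once bound, attach as dimers to the same palindromic DNA element, and raise many genes in common, among them kinases and ubiquitin enzymes of sodium transport, inhibitors of inflammatory signalling, transcription factors, and regulators of fuel use.

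The palindrome was searched on both strands as the arm GNACA, any 3 bases and the arm TGTNC (N is any base). It is shown here in the 4 members that carry it near a start site, because it is the sequence both receptors share. RefSeq windows from 250 bases before to 50 bases after a start site (build GRCm38.p6) were held for 23 of the 30 genes, in 37 windows. The element is in capitals and the stretch runs 5′ to 3′ on the gene's strand: Sgk1 at chr10:21993640-21993889 (plus strand), Map3k6 at chr4:133240568-133240817 (plus), Fam107a at chr14:8309780-8310029 (minus) and a short stretch of Mt1 at chr8:94178987-94179016 (plus).
Sgk1: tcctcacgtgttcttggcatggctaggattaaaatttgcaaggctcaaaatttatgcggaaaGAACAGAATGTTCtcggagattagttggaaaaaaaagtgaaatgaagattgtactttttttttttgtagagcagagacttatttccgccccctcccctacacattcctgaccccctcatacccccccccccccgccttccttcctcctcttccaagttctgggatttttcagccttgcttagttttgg
Map3k6: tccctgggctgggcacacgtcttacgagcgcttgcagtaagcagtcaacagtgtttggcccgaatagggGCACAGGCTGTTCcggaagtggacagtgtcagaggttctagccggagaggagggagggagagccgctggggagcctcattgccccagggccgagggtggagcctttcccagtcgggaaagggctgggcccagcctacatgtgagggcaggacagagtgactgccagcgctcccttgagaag
Fam107a: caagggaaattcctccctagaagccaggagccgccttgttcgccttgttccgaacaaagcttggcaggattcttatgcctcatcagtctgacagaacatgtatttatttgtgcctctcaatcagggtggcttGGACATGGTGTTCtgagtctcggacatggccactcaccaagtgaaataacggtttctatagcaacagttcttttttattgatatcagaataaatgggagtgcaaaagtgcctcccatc
Mt1: cactatagGGACATGATGTTCcacacgtca

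The element began 188 bases before the start site in 1 of the 6 Sgk1 windows, 181 bases before it in Map3k6, 118 in Fam107a and 94 in Mt1. It was found in 5 of the 37 member windows (13.5%), 2 of them overlapping Fam107a windows that share the site, against 156 of all 32851 windows (0.475%). The shorter sequence AGAACA, which can overlap the full element but not lie wholly inside it, was in 21.6% of member windows and 19% of all. The match is a description of the letters in these windows. Mt2 is shown with its metal response elements (TGCACNC or TGCGCNC, either strand, in capitals) since it varied most between hearts, at chr8:94172368-94172617 (plus strand).
Mt2: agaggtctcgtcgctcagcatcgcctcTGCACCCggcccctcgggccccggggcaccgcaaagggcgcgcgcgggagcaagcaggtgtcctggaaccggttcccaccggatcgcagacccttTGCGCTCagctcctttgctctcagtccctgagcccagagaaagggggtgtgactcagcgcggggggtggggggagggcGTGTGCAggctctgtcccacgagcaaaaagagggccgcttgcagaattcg
These elements were in 29.7% of member windows and 25.7% of all windows.

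Before the comparisons, the arrays were checked. In the Cy5 channel, 64.3% to 70.9% of all probes on an array cleared background. The mean of 8 cardiomyocyte markers lay 1.36 to 1.78 above the reference in every heart on the log2 scale of the value table, and the mean of 3 atrial markers lay at -5.04 to -4.63. The samples form 2 sets that cut across treatment and that the labels do not name. Set 1 holds controls 1, 3 and 4 with aldosterone 3 and 5, and set 2 holds controls 2 and 5 with aldosterone 1, 2 and 4. Because the sets were found in these data, differences between them are given below as a description with no test. RNA was from whole ventricle, in which fewer cells of a type and less RNA per cell cannot be told apart.

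Aldosterone moved no member past the threshold. Of the 30 genes, 0 were called between 5 control and 4 aldosterone arrays (limma, Benjamini-Hochberg adjusted p under 0.05 over all 22016 genes), and the share called among all genes was 0%. At an unadjusted p under 0.05 there were 2 members, Map3k6 and Cebpd, against 1365 of all genes (6.2%), a share close to the members' own. No member had aldosterone hearts that all lay above the controls, against 1.47% of all genes, or all below, against 0.636%. In the value table of 10 hearts 0 members were called, against 37 of all genes (0.168%), and 0 members had an unadjusted p under 0.05, against 1779 of all genes (8.08%). Of the members, 16 were higher and 14 lower, with a median difference of 0.03 on the log2 scale, where 52.3% of all genes were higher and their median was 0.01. The members' differences ran from -0.22 for Arl4d to 0.40 for Rgs2, and that of Rgs2 was 0.05 without aldosterone 2.

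**Figure D1:**
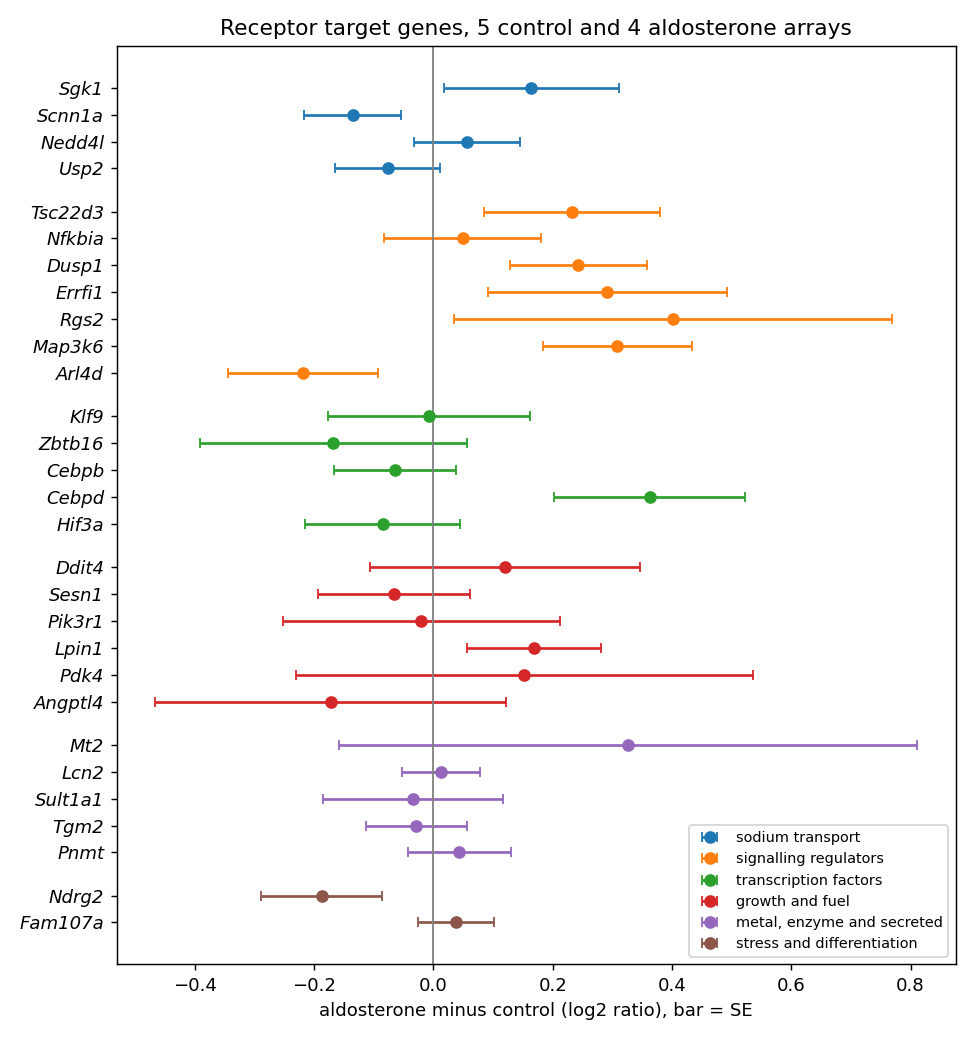
Difference between aldosterone and control arrays for each member except Mt1 (x axis, log2 ratio; bars are SE of the limma fit; 5 control and 4 aldosterone arrays), with genes on the y axis coloured by role. Points lie on both sides of 0 between -0.22 and 0.40, with most signalling regulators on the right.

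Among the 4 members of sodium transport, 2 were higher, 2 were lower and 0 passed. Sgk1 encodes the kinase that keeps epithelial sodium channels at the cell surface and is a classical aldosterone-induced gene of the kidney. Its log2 ratio was -0.33, -0.52, 0.06, -0.67 and -0.10 in controls 1 to 5 and -0.30, 0.14, -0.21 and -0.21 in aldosterone 1, 2, 3 and 5. Only aldosterone 2 lay above every control, and the groups overlapped. The difference was 0.16 (SE 0.15, limma adjusted p = 0.992), with a 95% interval from 0.895- to 1.40-fold.

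Scnn1a encodes the alpha subunit of that channel, and in the scanner arrays control ventricles read 10.3-fold below the pooled reference. Its control mean was -3.82 in the value table and -3.36 in the scanner arrays, so the fold depends on the processing. It read -3.17, -3.43, -3.36, -3.27 and -3.58 in controls 1 to 5 and -3.40, -3.56, -3.51 and -3.52 in aldosterone 1, 2, 3 and 5. Aldosterone 2, 3 and 5 lay below 4 of the controls but above control 5. The difference was -0.14 (SE 0.08, unadjusted p = 0.126, limma adjusted p = 0.935), and its 95% interval ran from 0.803- to 1.03-fold. Nedd4l, the ubiquitin ligase that withdraws the channel, differed by 0.06 (SE 0.09), and its second probe by -0.02. Usp2, a deubiquitinase that acts on the same channel, differed by -0.08 (SE 0.09).

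Of the 7 members grouped under kinase, receptor and inflammatory signalling 6 were higher with aldosterone, with a median of 0.24 over the 7, and 0 passed. Among all genes 52.3% were higher and their median was 0.01. These 7 members also all had a higher median in set 2 than in set 1 of the value table. Map3k6, a kinase kinase kinase of stress signalling whose promoter element is printed above, had the smallest p of all members. Its values were 0.78, 1.29, 0.94, 0.86 and 1.34 in controls 1 to 5 and 1.49, 1.32, 1.44 and 1.15 in aldosterone 1, 2, 3 and 5. Aldosterone 1 and 3 lay above every control, while aldosterone 2 and 5 lay below control 5, the highest control. The difference was 0.31 (SE 0.13, unadjusted p = 0.0320, limma adjusted p = 0.753), a ratio of 1.24 with a 95% interval from 1.02 to 1.5. Within slides 1 to 4, each of which held both groups, it was 0.45, 0.38, 0.58 and -0.19, and with slide as a block the unadjusted p was 0.0681. Slide 2 held a set 1 control and a set 2 aldosterone heart, and slide 4 the reverse. Only on slide 3 were all hearts of the same set, so the other slide values mix treatment with set. On slide 4 all 6 of the higher members of this group were lower with aldosterone. With all 10 hearts of the value table the difference was 0.22 (unadjusted p = 0.203), and aldosterone 4 read 1.88 there, lower than 6 of the other hearts.

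Dusp1 encodes the phosphatase that switches off MAP kinases. It read 0.61, 0.28, 0.32, 0.60 and 0.64 in controls 1 to 5, and 1.04, 0.68, 0.68 and 0.53 in aldosterone 1, 2, 3 and 5. Aldosterone 1, 2 and 3 lay above every control and aldosterone 5 lay among the controls. The difference was 0.24 (SE 0.11, unadjusted p = 0.0581, limma adjusted p = 0.825), and with all 10 hearts of the value table it was 0.13 (unadjusted p = 0.308).

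Tsc22d3 encodes GILZ, a leucine zipper protein that restrains NF-kappaB and AP-1 and mediates many glucocorticoid effects on inflammation. Its values were -0.24, 0.43, -0.15, -0.05 and 0.03 in controls 1 to 5 and 0.50, 0.34, 0.21 and -0.11 in aldosterone 1, 2, 3 and 5. Only aldosterone 1 exceeded control 2, the highest control, and aldosterone 5 lay below 3 controls. The difference was 0.23 (SE 0.15, limma adjusted p = 0.943; 95% interval 0.938- to 1.47-fold). Without aldosterone 5, Tsc22d3, Dusp1, Map3k6, Cebpd and Lpin1 had unadjusted p under 0.05, against 5.24% of all genes in the same fit, and 0 of these 5 passed after adjustment. Aldosterone 5 was the lowest aldosterone array for each of these 5 genes. Leaving it out can only raise their differences and so tests nothing.

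Rgs2 speeds the shut-off of Gq-coupled receptor signalling. It read -1.24, -0.65, -1.57, -1.25 and -0.31 in controls 1 to 5 and -0.31, 0.47, -1.21 and -1.35 in aldosterone 1, 2, 3 and 5. Both groups held high and low hearts, and the difference of 0.40 had an SE of 0.37. Its second probe, well above background on 6 of 9 arrays, gave 0.12 (SE 0.09). For Errfi1, which inhibits the EGF receptor, the difference was 0.29 (SE 0.20). Nfkbia, the inhibitor that holds NF-kappaB in the cytoplasm, differed by 0.05 (SE 0.13).

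Arl4d, a small GTP-binding protein, had the most negative difference of the 30 members. Its values were -0.10, -0.03, -0.20, 0.26 and 0.13 in controls 1 to 5 and -0.58, -0.13, -0.13 and 0.01 in aldosterone 1, 2, 3 and 5. Aldosterone 1 alone lay below every control. The difference was -0.22 (SE 0.13, unadjusted p = 0.111, limma adjusted p = 0.911), and its second probe gave -0.22 as well.

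**Figure D2:**
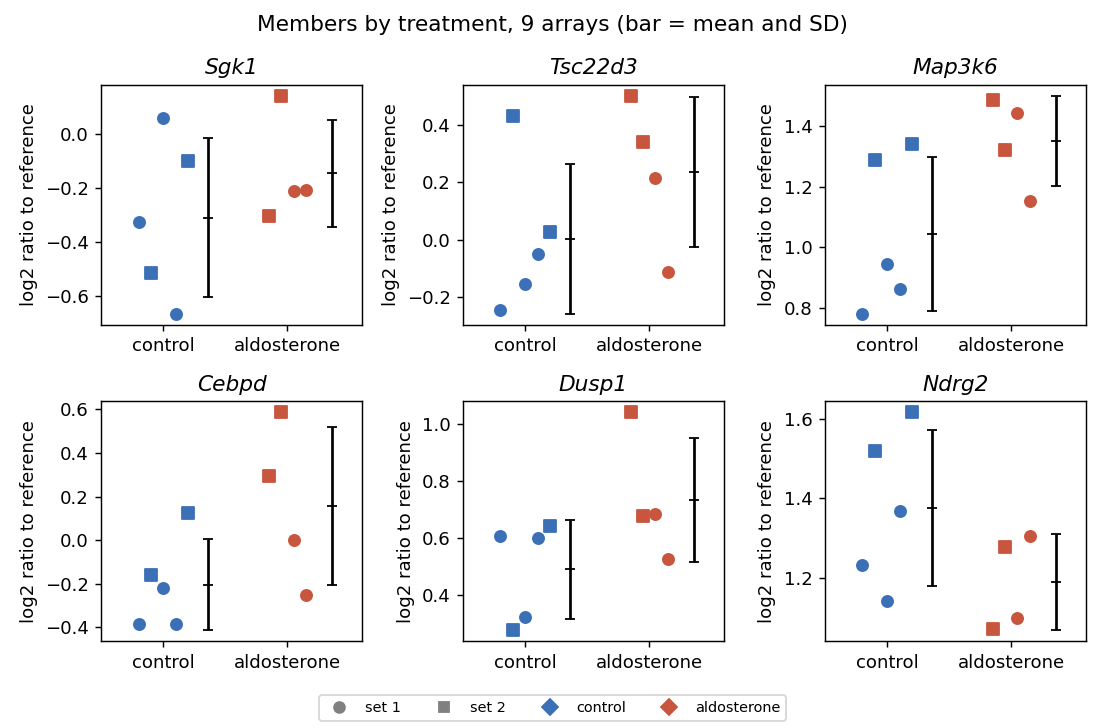
Log2 ratio to the reference (y axes) of Sgk1, Tsc22d3, Map3k6, Cebpd, Dusp1 and Ndrg2 in each of 5 control and 4 aldosterone hearts, coloured by treatment and shaped by set of hearts, with the mean and SD of each group. In each panel the 2 groups overlap, and the Map3k6 means are 1.04 and 1.35.

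Of the 5 transcription factors 1 was higher, 4 were lower and 0 passed. Cebpd, a basic leucine zipper factor induced early in inflammation and fat cell differentiation, was the one that was higher. It read -0.38, -0.16, -0.22, -0.38 and 0.12 in controls 1 to 5 and 0.30, 0.59, 0.0021 and -0.25 in aldosterone 1, 2, 3 and 5. Aldosterone 1 and 2, both of set 2, lay above every control, and aldosterone 5 lay within the range of the set 1 controls. The difference was 0.36 (SE 0.16, unadjusted p = 0.0455, limma adjusted p = 0.798), a ratio of 1.29 with a 95% interval from 1.01 to 1.64. Without aldosterone 2 it was 0.22, and within slides 1 to 4 it was 0.57, 0.81, 0.39 and -0.37. As for Map3k6, all but the slide 3 value mix treatment with set.

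Zbtb16 encodes PLZF, a zinc finger repressor that glucocorticoids induce in many tissues. Its values were 1.29, 1.67, 0.72, 1.21 and 1.81 in controls 1 to 5 and 1.55, 1.25, 1.23 and 0.66 in aldosterone 1, 2, 3 and 5. Controls 2 and 5 were the highest hearts and aldosterone 5 the lowest. The difference was -0.17 (SE 0.22, limma adjusted p = 0.999; 95% interval 0.632- to 1.25-fold). Klf9, a zinc finger factor of the hormone response, differed by -0.0075 (SE 0.17), Cebpb by -0.06 (SE 0.10), and Hif3a, of the hypoxia-inducible family, by -0.09 (SE 0.13). Other probes of Hif3a gave 0.015 and 0.0067, so its sign depended on the probe.

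The 6 genes of growth control and fuel use split into 3 higher and 3 lower, and 0 passed. Lpin1, a phosphatidate phosphatase and coactivator of fat oxidation genes, differed by 0.17 (SE 0.11), and its second probe by 0.03. Pdk4, the kinase that shuts pyruvate out of the mitochondrial oxidation pathway, differed by 0.15 with an SE of 0.38. Ddit4, an inhibitor of the growth kinase complex mTORC1, differed by 0.12 (SE 0.23). Sesn1, a stress sensor upstream of the same complex, differed by -0.07 (SE 0.13), Pik3r1, the regulatory subunit of PI3-kinase, by -0.02 (SE 0.23), and Angptl4, an inhibitor of lipoprotein lipase, by -0.17 (SE 0.29).

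Among metal-binding, enzyme and secreted proteins the differences were also small against their errors. Mt2, a zinc-binding metallothionein, differed by 0.33 with an SE of 0.48, and by 0.74 without control 2 and 0.05 without control 3. Its sister gene Mt1 was saturated in Cy5 on 4 of 5 control and 4 of 4 aldosterone arrays, so no difference is given for it, and the fit counted it among the 14 lower. Lcn2, a secreted iron-siderophore carrier, was 8.04-fold below the reference in control hearts and differed by 0.01 (SE 0.06). Sult1a1 (a sulfotransferase), Tgm2 (a transglutaminase) and Pnmt (the adrenaline-forming enzyme) lay between -0.03 and 0.04.

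Ndrg2, a differentiation and stress gene known in brain and heart, was 2.59-fold above the reference in control hearts. Its control mean was 1.74 in the value table and 1.38 in the scanner arrays. It read 1.23, 1.52, 1.14, 1.37 and 1.62 in controls 1 to 5 and 1.07, 1.28, 1.10 and 1.31 in aldosterone 1, 2, 3 and 5. Aldosterone 1 and 3 lay below every control and the others did not. The difference was -0.19 (SE 0.10, unadjusted p = 0.0937, limma adjusted p = 0.887). Fam107a, a stress-responsive actin regulator with the palindrome in its promoter, differed by 0.04 (SE 0.06).

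Controls occupied slide positions 1 or 4 and aldosterone arrays position 2, so position and treatment cannot be told apart. Markers of some other cell types leaned with treatment in the 9 arrays, and 0 of them passed the adjusted threshold. All 8 fibroblast markers were higher, 6 of them with an unadjusted p under 0.05, against 6.2% of all genes. Their mean log2 ratio in the value table of 10 hearts was 0.40 to 1.17 in control and 0.78 to 1.43 in aldosterone hearts. Of 8 adipocyte markers 7 were lower, with means in that table of -1.11 to -0.41 against -2.07 to -0.97. All 4 red blood cell markers measured and 6 of 7 macrophage markers were higher, and all 7 lymphocyte markers were lower. Endothelial markers (3 higher, 4 lower) and those of smooth muscle and pericytes (3 and 3) did not lean. The part of these cells in the members' differences was not tested.

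Most members stood higher in set 2 than in set 1. In the value table of 10 hearts, 26 of the 30 genes had a higher median in set 2, against 52.2% of all genes, and the median difference was 0.20 on the log2 scale, against 0.01. Mt1, whose probe was saturated, is counted among the 26, and Hif3a, whose probes disagreed, among the 4 lower. Both also count in the values by heart below. For 6 members, Mt2, Rgs2, Pik3r1, Ddit4, Sesn1 and Nfkbia, every heart of set 2 lay above every heart of set 1, where 4.81% of all genes did so. For 0 members did every heart of set 2 lie below, against 6.98% of all genes. In the 9 scanner arrays Usp2 and Lcn2 joined these, making 8, against 6.26% of all genes, with 1 heart fewer to overlap.

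**Figure D3:**
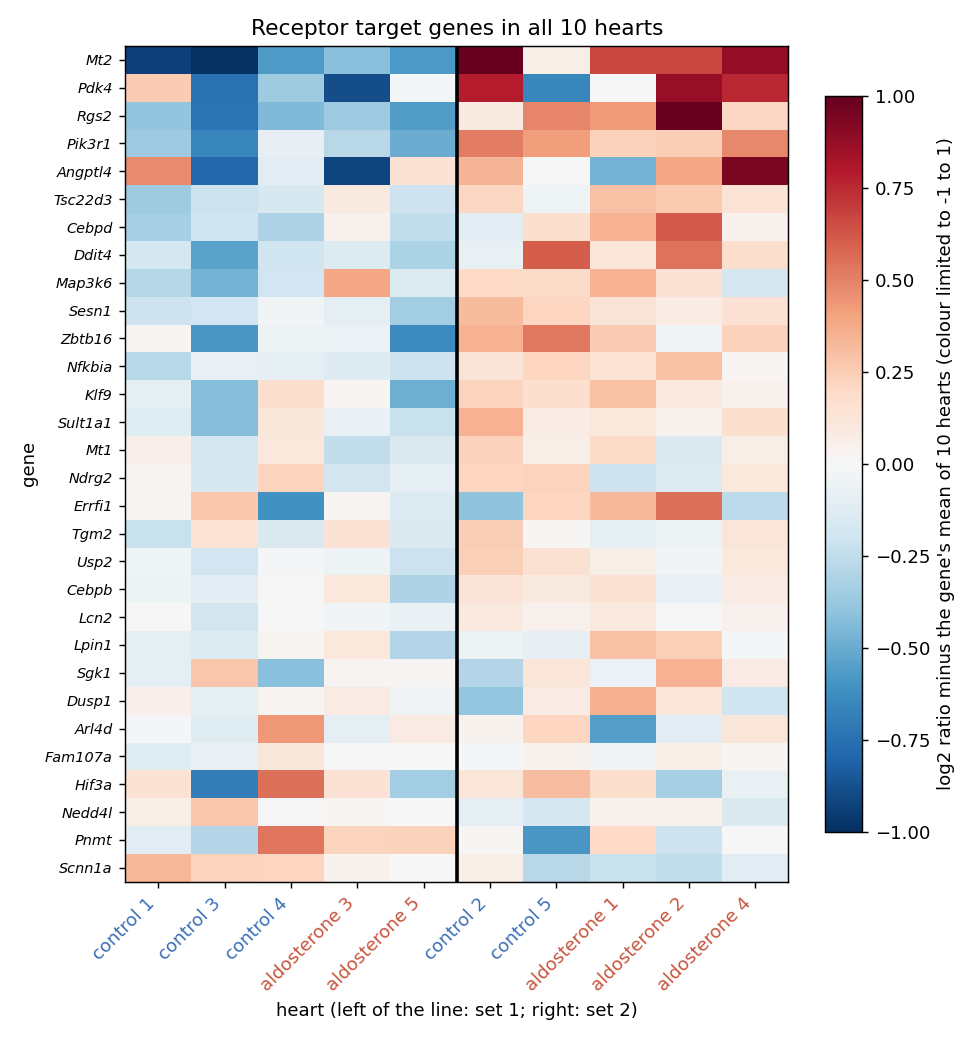
Log2 ratio of each member (rows) in each of 10 hearts (columns, control names in blue and aldosterone in red), minus the gene's mean of the 10 hearts, with the colour limited to -1 to 1. Set 2, right of the line, is redder than set 1 in most rows, and 26 of the 30 genes have a higher median there.

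By heart, the median deviation of the 30 members from their own means was -0.09, -0.19 and -0.02 in controls 1, 3 and 4 and -0.01 and -0.18 in aldosterone 3 and 5. In set 2 it was 0.13 and 0.11 in controls 2 and 5 and 0.14, 0.08 and 0.08 in aldosterone 1, 2 and 4. Each set 2 heart had 19 to 23 members above their mean, and each set 1 heart 4 to 15.

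Mt2 showed the widest gap. It read -3.33, -3.69 and -2.96 in controls 1, 3 and 4 and -2.81 and -2.96 in aldosterone 3 and 5. In set 2 it read -0.88 and -2.33 in controls 2 and 5 and -1.72, -1.72 and -1.51 in aldosterone 1, 2 and 4. The medians differed by 1.24, or 2.37-fold, and the gap was present among controls alone (means of -3.33 and -1.61) and among aldosterone hearts alone (-2.89 and -1.65).

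Rgs2 read -1.04, -1.38 and -1.08 in controls 1, 3 and 4 and -1.01 and -1.20 in aldosterone 3 and 5. In set 2 it read -0.55 and -0.15 in controls 2 and 5 and -0.22, 0.65 and -0.43 in aldosterone 1, 2 and 4. Aldosterone 2 was the highest heart and set 2 was more spread than set 1. The medians differed by 0.87, and by 1.17 at the second probe, which was well above background on 6 of 9 arrays.

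Pik3r1 separated the sets among controls and among aldosterone hearts alike. It read 0.43, 0.14 and 0.71 in controls 1, 3 and 4 and 0.52 and 0.30 in aldosterone 3 and 5. Its set 2 values were 1.31 and 1.21 in controls 2 and 5 and 1.02, 1.04 and 1.28 in aldosterone 1, 2 and 4. The medians differed by 0.78, while the aldosterone difference within the sets was -0.02 in set 1 and -0.15 in set 2.

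Ddit4, Sesn1 and Nfkbia separated the sets by less, with differences of medians of 0.38, 0.34 and 0.27. Set 1 ended at 0.49 for Ddit4 and set 2 began at 0.55, so a narrow gap divides them. The corresponding edges were 1.64 and 1.75 for Sesn1, and -1.03 and -0.93 for Nfkbia.

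**Figure D4:**
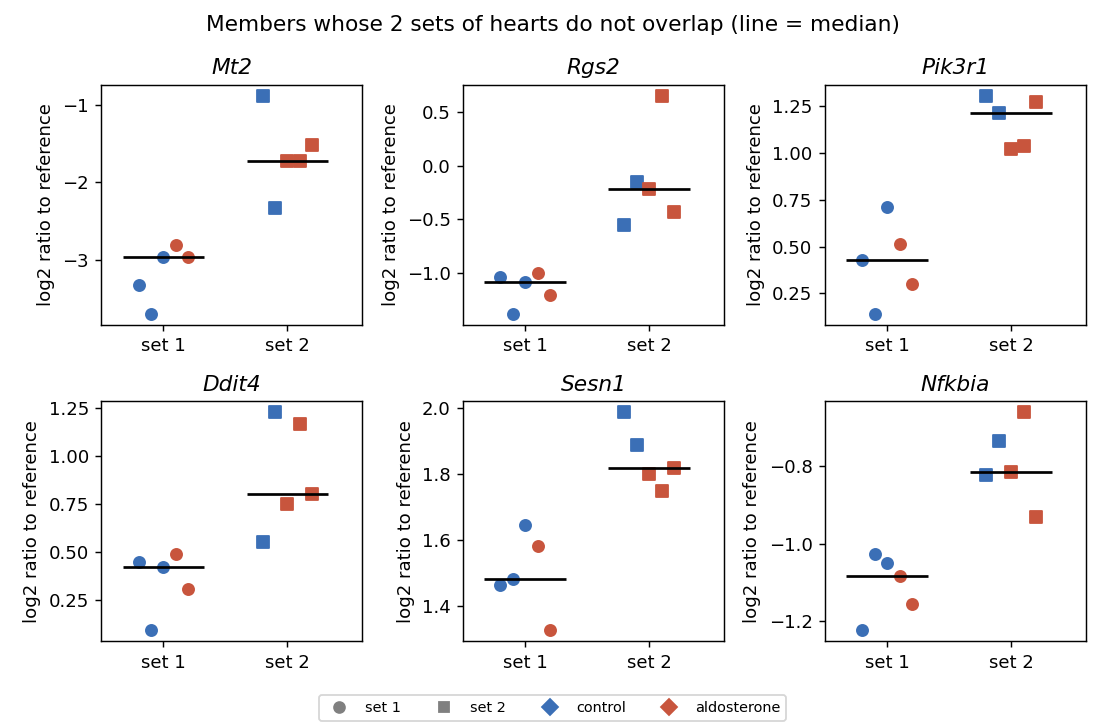
Log2 ratio to the reference (y axes, value table) of the 6 members whose sets of hearts do not overlap, in each of 10 hearts, coloured by treatment and shaped by set, with a line at each set's median. Both colours are found in both sets, and the Mt2 medians lie 1.24 apart.

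Pdk4 and Angptl4, fuel genes that rise with fasting, also differed between the medians of the sets but overlapped. Pdk4 read 0.69, -0.31 and 0.08 in controls 1, 3 and 4 and -0.45 and 0.42 in aldosterone 3 and 5. In set 2 it read 1.22 and -0.22 in controls 2 and 5 and 0.43, 1.30 and 1.19 in aldosterone 1, 2 and 4. Control 2 and aldosterone 2 and 4 were the highest hearts and control 5 was among the lowest, with medians 1.11 apart.

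Angptl4 read -1.32, -2.58 and -1.90 in controls 1, 3 and 4 and -2.71 and -1.64 in aldosterone 3 and 5. Its set 2 values were -1.45 and -1.80 in controls 2 and 5 and -2.26, -1.40 and -0.85 in aldosterone 1, 2 and 4. The ranges overlapped widely, with medians 0.45 apart.

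Scnn1a ran the other way, with a median 0.44 lower in set 2. Its set 1 values were -3.60, -3.71 and -3.72 in controls 1, 3 and 4 and -3.89 and -3.93 in aldosterone 3 and 5. In set 2 it read -3.87 and -4.21 in controls 2 and 5 and -4.15, -4.18 and -4.04 in aldosterone 1, 2 and 4. Control 2 alone of set 2 lay within the range of set 1. In the scanner arrays after loess the difference was -0.13.

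The other members overlapped between sets. Tsc22d3 had medians 0.42 apart (set 1 from -0.12 to 0.33, set 2 from 0.19 to 0.53), and Zbtb16 had medians 0.32 apart (0.92 to 1.57 and 1.52 to 2.08). Sgk1 differed by only 0.06 between set medians (-0.44 to 0.26 and -0.31 to 0.33), and the sets overlapped almost entirely. The 3 probes of Hif3a disagreed, with set differences of -0.02, -0.38 and 0.79, and no order of the sets is read from it.

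Within a set the aldosterone difference does not mix the sets, at 2 or 3 hearts a group. The same sign in both sets was found for 22 of 30 members in the value table, and for 58.5% of all genes. The 22 include members higher in both sets and members lower in both. Mt1, whose probe was saturated, and Hif3a, whose probes disagreed, are counted among those lower. Of those higher, Cebpd differed by 0.18 in set 1 and 0.31 in set 2, Tsc22d3 by 0.19 and 0.15, and Sgk1 by 0.10 and 0.21. Of those lower, Ndrg2 differed by -0.17 and -0.30, Zbtb16 by -0.14 and -0.29, and Scnn1a by -0.24 and -0.08. Map3k6 differed by 0.44 in set 1 and -0.09 in set 2, and the change between the sets was not tested. With set as a block in the fit of 9 arrays, 8 genes passed among all genes (0.0363%) and 0 members did, and Cebpd (0.32, SE 0.10, limma adjusted p = 0.382), Map3k6 (0.28, SE 0.09, adjusted p = 0.414) and Ndrg2 (-0.20, SE 0.09, adjusted p = 0.586) had unadjusted p under 0.05. That is 3 of 30 members, against 8.39% of all genes in the same fit. The sets were found in these same data, so p-values with set as a block can be too small. In the value table with set as a block, 1 of 30 members, Ndrg2, had an unadjusted p under 0.05, against 2236 of 22016 genes. Its unadjusted limma p was 0.0283 there, and those of Cebpd and Map3k6 were 0.0656 and 0.292.

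Macrophage markers moved with the sets as well. The mean log2 ratio of 7 of them was -1.70 to -1.08 in set 1 and -1.11 to -0.61 in set 2, and 1 of the 7, Mrc1, did not overlap. The marker means of cardiomyocytes were 1.36 to 1.65 in set 1 and 1.6 to 1.78 in set 2, but the 8 markers did not move together. Ryr2 (medians 0.98 apart) and Pln (0.62) lay wholly above in set 2 and Mybpc3 (-0.30) wholly below. The median set difference of the 8 was 0.06. The part of these cells in the members' set differences was not tested.

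A further 25 receptor targets that are not among the 30 were listed, and 23 of them were tested. With aldosterone 19 were higher and 4 lower, with a median of 0.07, and 0 passed. At an unadjusted p under 0.05 there were 4 of the 23, 2 in each direction, against 6.2% of all genes. Fkbp5, the receptor cochaperone widely used as a marker of glucocorticoid action, differed by 0.01 (SE 0.13), and Per1 by 0.01 (SE 0.10). Anxa1, an anti-inflammatory phospholipid-binding protein, had the smallest p of the list (0.46, SE 0.12, unadjusted p = 0.00242, limma adjusted p = 0.399). The cell cycle inhibitor Cdkn1a differed by 0.26 (SE 0.09, limma adjusted p = 0.674), while its relative Cdkn1c differed by -0.21 (SE 0.08, adjusted p = 0.700). Txnip, a thioredoxin inhibitor that also limits glucose uptake, differed by -0.60 (SE 0.22, limma adjusted p = 0.708), and by -0.37 in the 10 hearts of the value table. Between the sets, the median difference of the list was 0.21, higher in set 2.

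The receptors themselves did not pass the threshold either. Nr3c1, the glucocorticoid receptor, differed by 0.16 (SE 0.09, limma adjusted p = 0.911) and Nr3c2, the mineralocorticoid receptor, by -0.03 (SE 0.08). In the 10 hearts of the value table Nr3c2 differed by -0.21 (SE 0.10, unadjusted p = 0.0543, limma adjusted p = 0.628), and there with set as a block by -0.25 (unadjusted p = 0.0166, adjusted p = 0.394). Aldosterone 4, the heart without a scanner file, read 0.21 for Nr3c2, within the 0.025 to 0.43 of the other aldosterone hearts. The 2 sources also differ in processing. Because the sets were found in these data, the p-values with set as a block can be too small. Hsd11b1, which regenerates corticosterone in cells, differed by -0.01 (SE 0.13), and the cochaperone Fkbp4 by 0.03 (SE 0.07). None of these 4 separated the sets.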

How the data were processed

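Ventricle RNA of 10 mice was measured on 2-colour Agilent arrays. Scans had been read by Agilent Feature Extraction 10.7.3.1, per the submitters' processing notes, and the deposited scanner files of 9 arrays list an intensity for each spot. Their log ratio column, log10 of heart over reference per the file headers, served as an alternative. For all 10 hearts the authors deposited log2 ratios by probe in a value table. This was the scanner log ratio on the log2 scale (r 0.996 to 1.00, slope 1.00, 82.7% to 86.6% of probes within 0.001), uncentred, with column medians of 0.06, 0.06, 0.12, 0.02 and 0.02 in controls 1 to 5 and 0.04, 0.08, 0.11, -0.0066 and 0.04 in aldosterone 1 to 5. Why the remaining probes differ is unknown.

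Median signals were background-corrected with normexp (offset 50) and normalized by loess within arrays (R 4.3.3, limma 3.58.1). Local backgrounds over 20 units from the array median were replaced by that median, because control 1 held stray backgrounds up to 11739.5 units. Control spots and 1667 outlier spots were left out. Probes well above background in Cy5 on at least 4 arrays were kept, 26877 of 39429. RefSeq records of GRCm38.p6 named 26581 probes by accession. Precision is limited by the number of arrays. The size of the log2 ratios depended on the processing. Control means here and in the value table were 1.04 and 1.94 for Map3k6, 0.38 and 1.39 for Pnmt, and -3.31 and -3.22 for Errfi1. The aldosterone difference of Pnmt was 0.04 here and 0.17 in the value table. Folds against the reference are those of this processing.

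The comparison was limma's two-sided moderated test over 22016 genes, Benjamini-Hochberg adjusted, threshold 0.05, without aldosterone 4. On simulated data with 200 of 22016 genes changed it recovered 73.1% of changes of 0.5, 92.5% of 1 and 100% of 2 log2 units. The simulated noise was independent between genes and held no sets of hearts, and the changed genes were drawn at random. These shares are therefore no measure of power for the members, among which Mt2 had an SE of 0.48 and Pdk4 of 0.38. Every heart's value is given for Sgk1, Tsc22d3, Zbtb16, Scnn1a, the 6 members of smallest p and the 6 of largest set difference, and other lists are named by up to 4 genes of smallest p; Fkbp5 and Per1 were named after their values were seen. Which genes of the further target list separated the sets is not reported here. Members and lists were chosen with earlier results of these data known. Alternatives were other backgrounds, scalings, filters, probe rules, blocks for slide, replicate number and set, the value table, and leaving out each array.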

Additional observations from a re-analysis of the deposited data

Results flagged for a closer look

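One heart stood apart from the rest of its group, among 120 groups of hearts checked, where chance flags about 1 in 20. Nedd4l read 0.073 in aldosterone 4 in the value table, and the other 4 aldosterone hearts read 0.21 to 0.26. Controls 1 and 3 lay above that range at 0.27 and 0.49, control 4 at its lower edge, and controls 2 and 5, at 0.11 and 0.04, near aldosterone 4.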

How the results depend on the processing

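No member passed the threshold under any of 26 alternatives, and the members' median difference stayed between -0.03 and 0.07. The median log2 ratio of the members on a single array had an SD of 0.17 between arrays of a group. That SD is a spread of levels and not an error of the median difference. Over all genes, 0 passed as reported, and 11 passed with the scanner log ratio, 37 with the value table, 13 with its 9 hearts, 8 with set as a block, 12 with the value table and set as a block, and 0 to 11 without single arrays. Counts with set as a block can be too high, because the sets were found in the same data. Replicate numbers did not pair the samples (correlations of deviations 0.06, 0.34, 0.35 and -0.34), and with the replicate block 2 genes and 0 members passed. Members with an unadjusted p under 0.05 numbered 0 to 5 without single arrays, and 0 with stray backgrounds kept.

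Of 29 members (without Mt1), 15 never changed sign and 14 did. Lcn2 was -0.036 with stray backgrounds kept, -0.0195 after scaling, -0.00129 with the replicate block and -0.00382 in the value table with set as a block. In the value table Nedd4l was -0.019, Pik3r1 0.071, Angptl4 0.036 and Sult1a1 0.0046. With slide as a block Klf9 was 0.028, Pik3r1 0.019 and Sult1a1 0.0083, and Klf9 was 0.029 with the replicate block. Nfkbia was -0.022 in the value table with set as a block. Without single arrays the ranges were -0.024 to 0.13 for Nfkbia, -0.12 to 0.15 for Klf9, -0.15 to 0.12 for Pik3r1, -0.16 to 0.048 for Sult1a1, -0.12 to 0.46 for Pdk4, -0.021 to 0.043 for Lcn2, -0.089 to 0.021 for Tgm2, -0.13 to 0.0104 for Sesn1, -0.0053 to 0.093 for Pnmt, -0.053 to 0.3 for Ddit4, -0.37 to 0.069 for Angptl4, -0.32 to 0.0049 for Zbtb16 and -0.15 to 0.031 for Cebpb. The causes were not tested. The set block on the value table was chosen after seeing the data, as was leaving single hearts out of the sets, which can only keep or raise the count of 6 members (6 to 9) and so tests nothing.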
